A study of Canis lupus familiaris with 18 samples.

Results

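The mitochondrial respiratory chain was followed here through 65 nuclear genes for its subunits, out of 15115 genes that carried a single symbol on the array. The genes were taken by symbol: the NDUFA, NDUFB, NDUFC, NDUFS and NDUFV genes of complex I, SDHA to SDHD of complex II, CYC1 and the UQCR genes of complex III, CYCS for cytochrome c, the COX genes of complex IV, and the ATP5 genes of complex V. Assembly factors named NDUFAF were left out. The genes were covered by 127 of 42924 probe sets other than controls, and each gene was read from its probe set of highest mean over all arrays. Complex I contributed 35 genes, complex II 4, complex III 8, cytochrome c 1, complex IV 7 and complex V 10. NDUFA4 and NDUFA4L2 were kept with complex I by symbol, although NDUFA4 is known as a subunit of complex IV. Subunits encoded by mitochondrial DNA were not part of the set.

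RNA came from 18 primary osteosarcomas of dogs, malignant bone tumours whose cells lay down bone matrix, and each tumour was run on 1 Affymetrix canine array. The tumours were grouped by the serum concentration of alkaline phosphatase (ALP), an enzyme shed into blood by bone-forming cells and by liver: 9 came from dogs with a normal and 9 from dogs with an increased concentration. Tumours had been frozen at surgery, biopsy or necropsy, and no unaffected bone was compared. Breed, age and treatment were not used here, and the labels do not state that each tumour came from a different dog, so p-values measure the spread between these tumours. In whole tumour tissue, fewer cells of a type and less RNA per cell cannot be told apart.

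The respiratory chain sits in the inner membrane of mitochondria. Complex I takes electrons from NADH and complex II takes them from succinate, and ubiquinone carries them to complex III, from which the small protein cytochrome c carries them to complex IV, where oxygen is reduced. Complexes I, III and IV pump protons across the membrane, and complex V, the ATP synthase, uses the return flow to make ATP. Osteoclasts, the bone-resorbing cells, and skeletal muscle fibres are cell types known for their many mitochondria.

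All values below are log2(signal + 16), where the signal is the deposited value turned back to a linear scale, and every difference is increased minus normal ALP. As deposited, the log2 values had array medians of 6.25 to 6.31, with upper quartiles of 8.01 to 8.27, and each group rests on 9 arrays. COL1A1, the main collagen of bone matrix, stood between 12.75 and 14.88 in all 18 tumours, within the upper part of the scale. The arrays of increased ALP replicates 3 and 6 stood apart in the BioB spike-in control (10.34 and 9.89, against 8.33 to 9.21 on the other arrays) and had the lowest upper quartiles (8.08 and 8.01). Skeletal muscle genes were highest in replicate 1 of the normal group and replicate 4 of the increased group, whose mean deviation over the 10 of 14 listed muscle genes that passed the filter on dim probe sets was 5.06 and 3.32. For many results that moved without these arrays, the value without them is given as well. The 3' minus middle difference of the actin control probe sets is a measure of RNA integrity. It ran from 1.19 to 1.76 with normal and from 1.44 to 2.17 with increased ALP. Normal ALP replicate 7 alone stood at 1.76, and the next highest normal array, at 1.42, lay below the lowest increased array. The difference had an r of 0.667 with the ALP group, and that of a second group of actin probe sets 0.593. RNA integrity and ALP group are therefore partly confounded, and their parts in any difference cannot be fully told apart.

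The tumours differed among themselves in respiratory chain mRNA more than the ALP groups did. Each gene was expressed as a deviation from its own mean over the 18 tumours, and the median deviation over the 65 genes was taken per tumour. It ran from -0.27 in normal ALP replicate 3 to 0.35 in replicate 6, with a median of -0.04, in the normal group. In the increased group it ran from -0.34 in replicate 3 to 0.17 in replicate 9, with a median of 0.0020, so that the order of the group medians was opposite to that of the means. The group means were 0.04 ± 0.24 and -0.04 ± 0.18 (SD, n = 9 each), so the ranges overlapped and the gap was smaller than the spread within either group.

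The same tumours were high or low across nearly the whole set. In normal ALP replicates 9 and 6, 60 and 59 of the 65 genes lay above their own means, and the count was 52 in both normal ALP replicate 2 and increased ALP replicate 9. At the other end, 4 genes lay above their means in normal ALP replicate 3 and 6 in increased ALP replicate 7. High and low tumours therefore occurred in both ALP groups, as the heat map of all genes and tumours shows. Normal ALP replicate 3 was the lowest normal tumour for complexes I, II and III, at -0.29, -0.37 and -0.24, and increased ALP replicate 3 was the lowest increased tumour for the same complexes, at -0.37, -0.51 and -0.31.

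**Figure D1:**
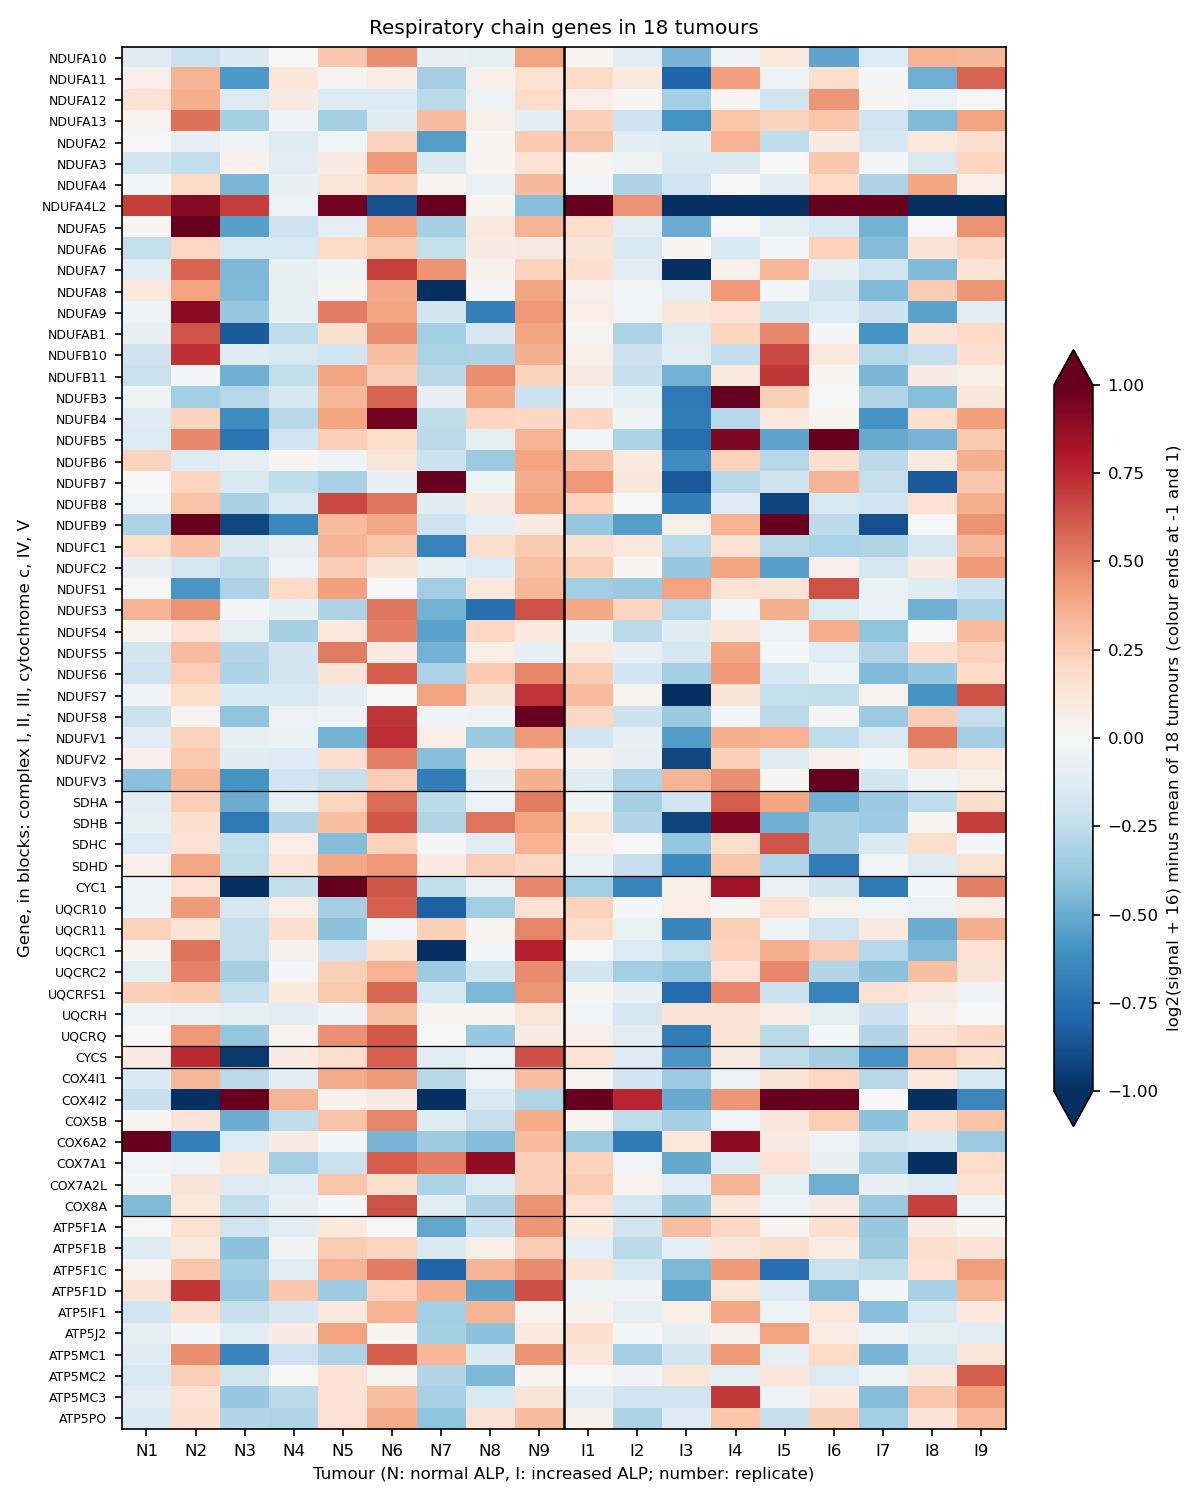
Deviation of each of the 65 respiratory chain genes (rows, grouped by complex) from its own mean over 18 tumours, in log2 units, with normal ALP replicates N1 to N9 and increased ALP replicates I1 to I9 in columns and the colour scale ending at -1 and 1. Columns N6 and N9 are red for 59 and 60 of 65 genes and columns N3 and I7 are blue for most, so that high and low tumours lie in both groups.

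Markers of other cell types moved with some of these tumours. The mean deviation of the 6 osteoclast genes of 10 listed that passed the filter was 1.81 in normal ALP replicate 9 and 1.58 in replicate 6, the highest of the normal group, and -2.54 in normal ALP replicate 3 and -2.51 in increased ALP replicate 7, the lowest of each group. It was -1.01 in normal ALP replicate 2, whose respiratory chain genes were high, and 0.18 in increased ALP replicate 3, whose genes were low. The osteoclast genes ranged from -2.54 to 1.81 in the normal and from -2.51 to 1.31 in the increased group. The 8 osteoblast genes of 10 listed that passed ranged from -1.63 to 0.85 and from -1.87 to 1.27. Osteoblast genes stood at 0.85 and 0.54 in normal ALP replicates 6 and 9, and at -1.63 and -1.35 in normal ALP replicate 3 and increased ALP replicate 7. Their part in the level of the respiratory chain genes was not tested.

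By complex, the spread between tumours was of the same order. The lowest tumour median for complex I was -0.37 and the highest was 0.33, and for complex V they were -0.35 and 0.28. Complex II ran wider, from -0.51 in increased ALP replicate 3 to 0.49 in normal ALP replicate 6. Complex III reached 0.46 in both normal ALP replicates 6 and 9, while no tumour with increased ALP exceeded 0.19. Even there the groups overlapped, and the means were 0.09 ± 0.27 and -0.05 ± 0.17 (SD, n = 9 each).

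**Figure D2:**
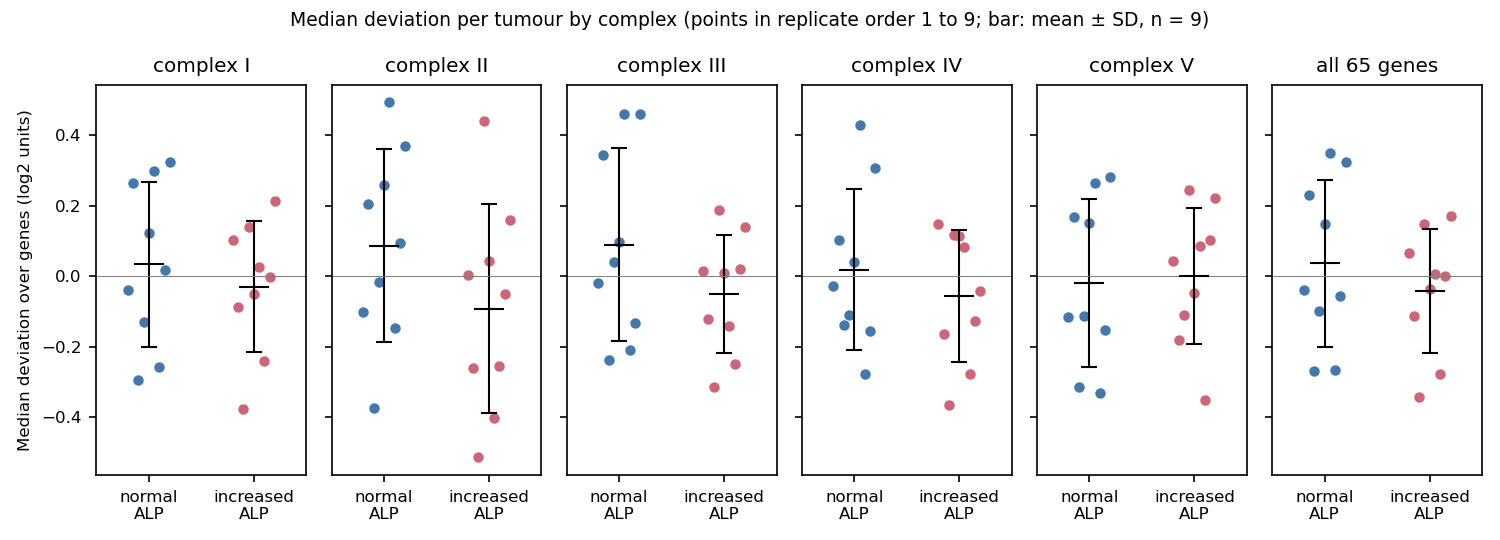
Median deviation per tumour over the genes of each complex and over all 65 genes, in log2 units, with points in replicate order and bars for the mean ± SD (n = 9 per group). The groups overlap in every panel, and over all genes the means are 0.04 and -0.04.

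The subunit genes varied together across the 18 tumours. The median Pearson r over all pairs of the 65 genes was 0.383, whereas the median over pairs of all 10717 genes tested was 0.00 to 2 decimals. Pairs share the same arrays and their RNA quality, so these are descriptions with no p. Within complexes the median was 0.365 for complex I, 0.617 for the 4 genes of complex II, 0.340 for complex III, 0.437 for complex V and 0.0773 for complex IV. Pairs taken from different complexes were about as strongly related as pairs within complexes I, III and V. The medians were 0.402 between complexes I and II, 0.492 between II and III, 0.454 between III and V and 0.387 between I and V. Complex II was related to the others at 0.339 (with IV) to 0.492 (with III), below the value among its own 4 genes. Complex IV was related to the others at 0.287 (with I) to 0.346 (with V), above the value among its own genes. Its 7 genes were of unlike behaviour. COX4I2, COX6A2 and COX7A1 had a median r with the other members of -0.07, -0.0016 and 0.12. For COX4I1, COX5B, COX7A2L and COX8A it ran from 0.402 to 0.533. Over the 9 normal tumours alone the median over all pairs was 0.509 and over the 9 increased ones 0.327, a gap that was not tested. After scaling arrays to a common 75th percentile the median was 0.341 for the members and 0.03 for all genes.

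The genes that stood outside this pattern were mostly isoforms known from particular tissues or from low oxygen. NDUFA4L2, a relative of NDUFA4 known to be induced by hypoxia-inducible factor, had a median r of -0.24 with the other members. COX4I2, a form of subunit 4 of complex IV known from lung and vascular cells, had -0.07. COX6A2 and COX7A1, forms of heart and skeletal muscle, had values near 0 and of 0.12. NDUFB7 and NDUFS1, ordinary complex I subunits, also stood at 0.02 and 0.03. For NDUFS1 that is the value of the chosen probe set, whose ALP difference departed from those of its other probe sets, as given below. At the other end NDUFS6, an accessory subunit of complex I, had a median r of 0.591, ATP5PO of the ATP synthase stalk 0.572, and SDHB, the iron-sulfur subunit of complex II, 0.552.

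**Figure D3:**
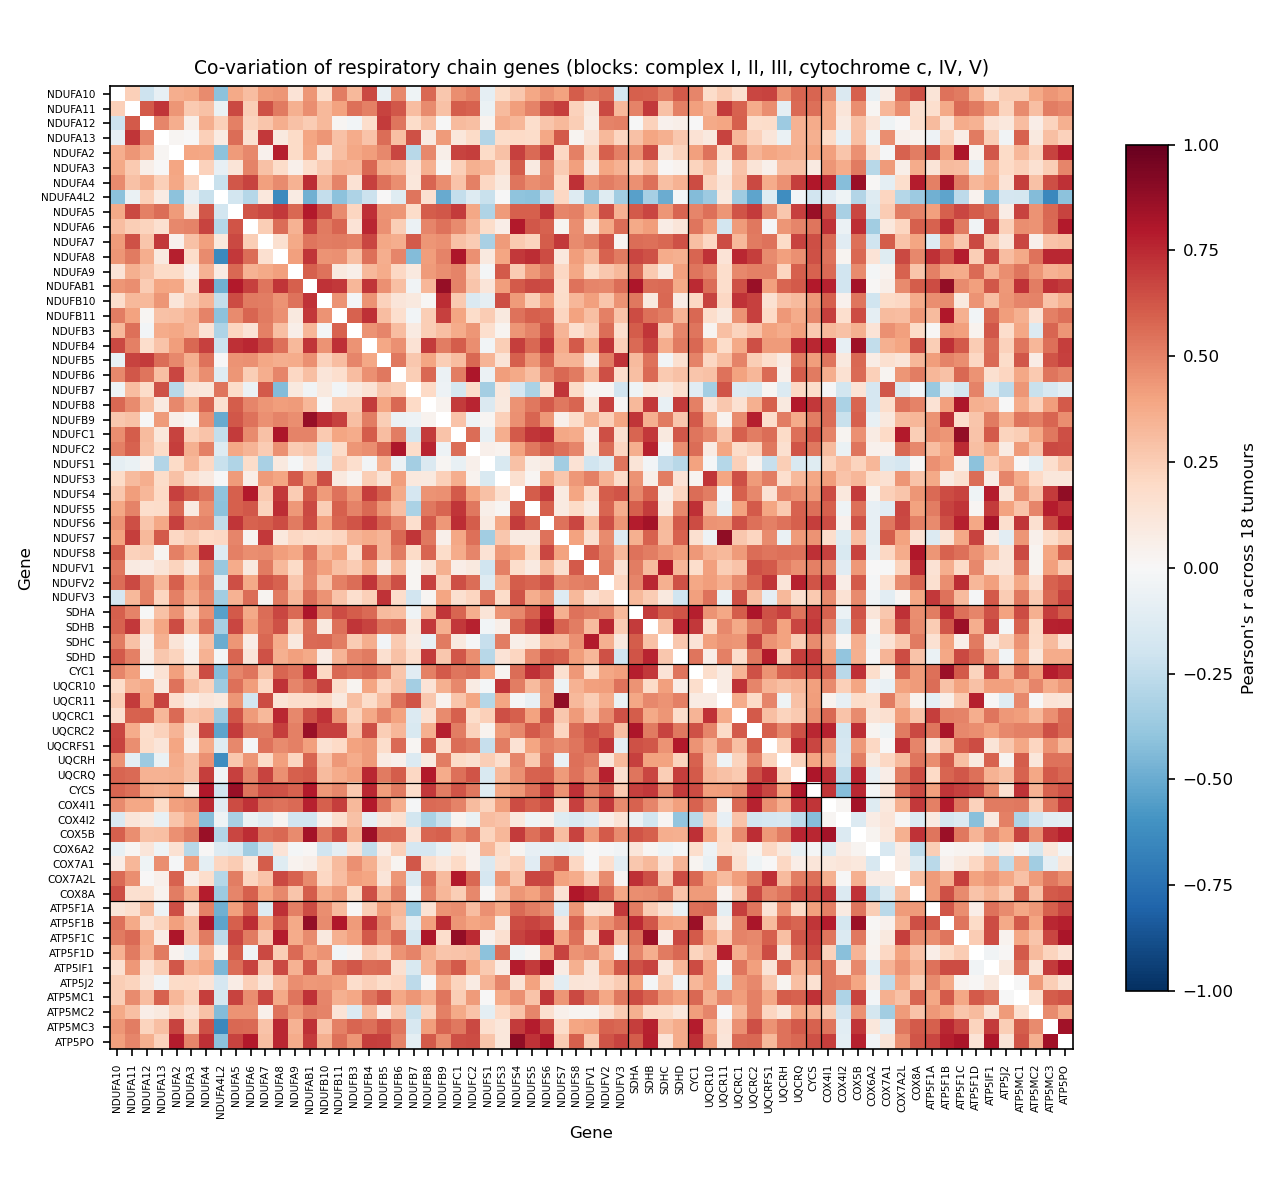
Pearson's r across 18 tumours for every pair of the 65 genes, with black lines between complexes I, II, III, cytochrome c, IV and V and a colour scale from -1 to 1. Most cells are red, with a median of 0.383, and the rows of NDUFA4L2 (median -0.24) and COX4I2 (median -0.07) are pale or blue.

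The question the study design poses is whether tumours of dogs with increased serum ALP differ in expression from those with normal ALP. For the respiratory chain, 0 of 65 genes passed the threshold of 0.05 on the adjusted p from limma, and the smallest adjusted p was 0.713, that of SDHD. Among all 25754 probe sets tested, 0.0% passed. At an unadjusted p under 0.05, 1 of the 65 genes was found, SDHD with a lower value. The share over all genes tested was 4.86%, with 3.17% lower, and over all probe sets 6.14%, with 4.22% lower and 1.92% higher. With the GAPDH 3' minus middle difference as a covariate, or without increased ALP replicates 3 and 6, the count of members was 0. The shares of genes were then 2.62% and 2.78%. With the difference of the second group of actin probe sets as a covariate, added after seeing the data, the count was 4, against 3.18% of genes. All 65 genes had passed the filter on dim probe sets.

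The differences were small and leaned below 0. With increased ALP, 46 of 65 genes (70.8%) had a difference below 0, with a median of -0.04, whereas 46.6% of all 10717 genes did, with a median of 0.01. The lean changed with the scaling: after scaling to the 75th percentile 31 members (47.7%) lay below 0 with a median of 0.01, against 37.1% of genes with a median of 0.05. After quantile normalization 36 members (55.4%) lay below 0 with the median still at -0.04, against 41.3% of genes with a median of 0.03. With the mean of a gene's probe sets in place of the brightest, 48 members (73.8%) lay below 0 with a median of -0.11. The share of genes was then 52.2%, with a median of -0.0085, so the size of the lean also depended on the choice of probe set. With the actin difference as a covariate 36 members lay below 0 with a median of -0.05, against 49.0% of genes. With the GAPDH difference 36 members did with a median of -0.0076, against 46.6% of genes. With the second group of actin probe sets, added after seeing the data, 49 members did with a median of -0.14, against 48.9% of genes. Without increased ALP replicates 3 and 6, 41 members did with a median of -0.03, against 47.4% of genes. Single tumours moved the median as well, to -0.09 without normal ALP replicate 3 and to -0.01 without normal ALP replicate 6. Leaving out the 2 tumours of highest muscle genes gave a count of 51 members, against 47.8% of genes. Only 4 members (6.15%) differed by more than 0.3 in either direction, against 13.8% of all genes, and 3 of these 4 were the isoforms NDUFA4L2, COX4I2 and COX7A1.

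Several lists of marker genes of other cell types leaned one way or the other between the same groups, and 0 marker genes passed the adjusted test in limma. All 6 neutrophil genes tested of 7 had a difference above 0, with a median of 0.71 and 1 at an unadjusted p under 0.05 in limma. That gene, LTF, had a mean of 5.78 with normal and 6.67 with increased ALP, against the filter cut of 6.15. It passed the filter only through the increased group. The mean deviation of the neutrophil genes ran from -0.90 to 0.64 with normal and from -0.75 to 2.33 with increased ALP. All 5 fat cell genes tested of 6 lay above 0, with a median of 0.59, and their mean deviation ran from -1.51 to 0.67 and from -0.45 to 2.49. All 6 T and NK cell genes lay above 0, with a median of 0.24 and 1 at an unadjusted p under 0.05 in limma. Their mean deviation ran from -0.58 to 1.02 and from -0.29 to 1.15. The 1 gene, LCK, and CD3D had normal means of 6.11 and 6.05, below the same cut, and increased means of 6.45 and 6.31. The neutrophil and the T and NK cell counts thus rest partly on the filter. Muscle genes lay below 0 in 8 of 10 (median -0.22) and osteoclast genes in 5 of 6 (median -0.17). The mean deviation of the muscle genes was 5.06 in normal ALP replicate 1. Its group medians ran the other way, at -0.66 with normal and -0.56 with increased ALP. MB, MYH7, TNNT1 and TNNT3 had normal medians of 5.59 to 6.03, below the same cut. They passed it through the few tumours of high muscle genes, so the muscle count also rests partly on the filter. Macrophage genes (3 of 7 below 0, median 0.04) and osteoblast genes (3 of 8 below 0, median 0.02) had no clear lean. The part of these cell types in the respiratory chain values was not tested.

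By complex, 24 of 35 genes of complex I lay below 0 with a median of -0.03, 3 of 4 of complex II with -0.12, and 7 of 8 of complex III with -0.13. The counts were 5 of 7 with -0.04 for complex IV and 6 of 10 with -0.01 for complex V. No complex had a gene that passed the test. Median differences of complexes I, IV and V changed sign when single arrays were left out, from -0.10 to 0.01, from -0.11 to 0.00 and from -0.05 to 0.04. That of complex II ran from -0.23 to -0.06 in the same way and was 0.06 with the actin covariate. That of complex III ran from -0.17 to -0.07, and was -0.03 with the GAPDH and -0.04 with the actin covariate. Without increased ALP replicates 3 and 6 the medians were -0.0053 for complex II and -0.04 for complex III. With the mean of a gene's probe sets the medians were -0.11 for complexes I and III, -0.12 for II, -0.15 for IV and -0.03 for V.

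**Figure D4:**
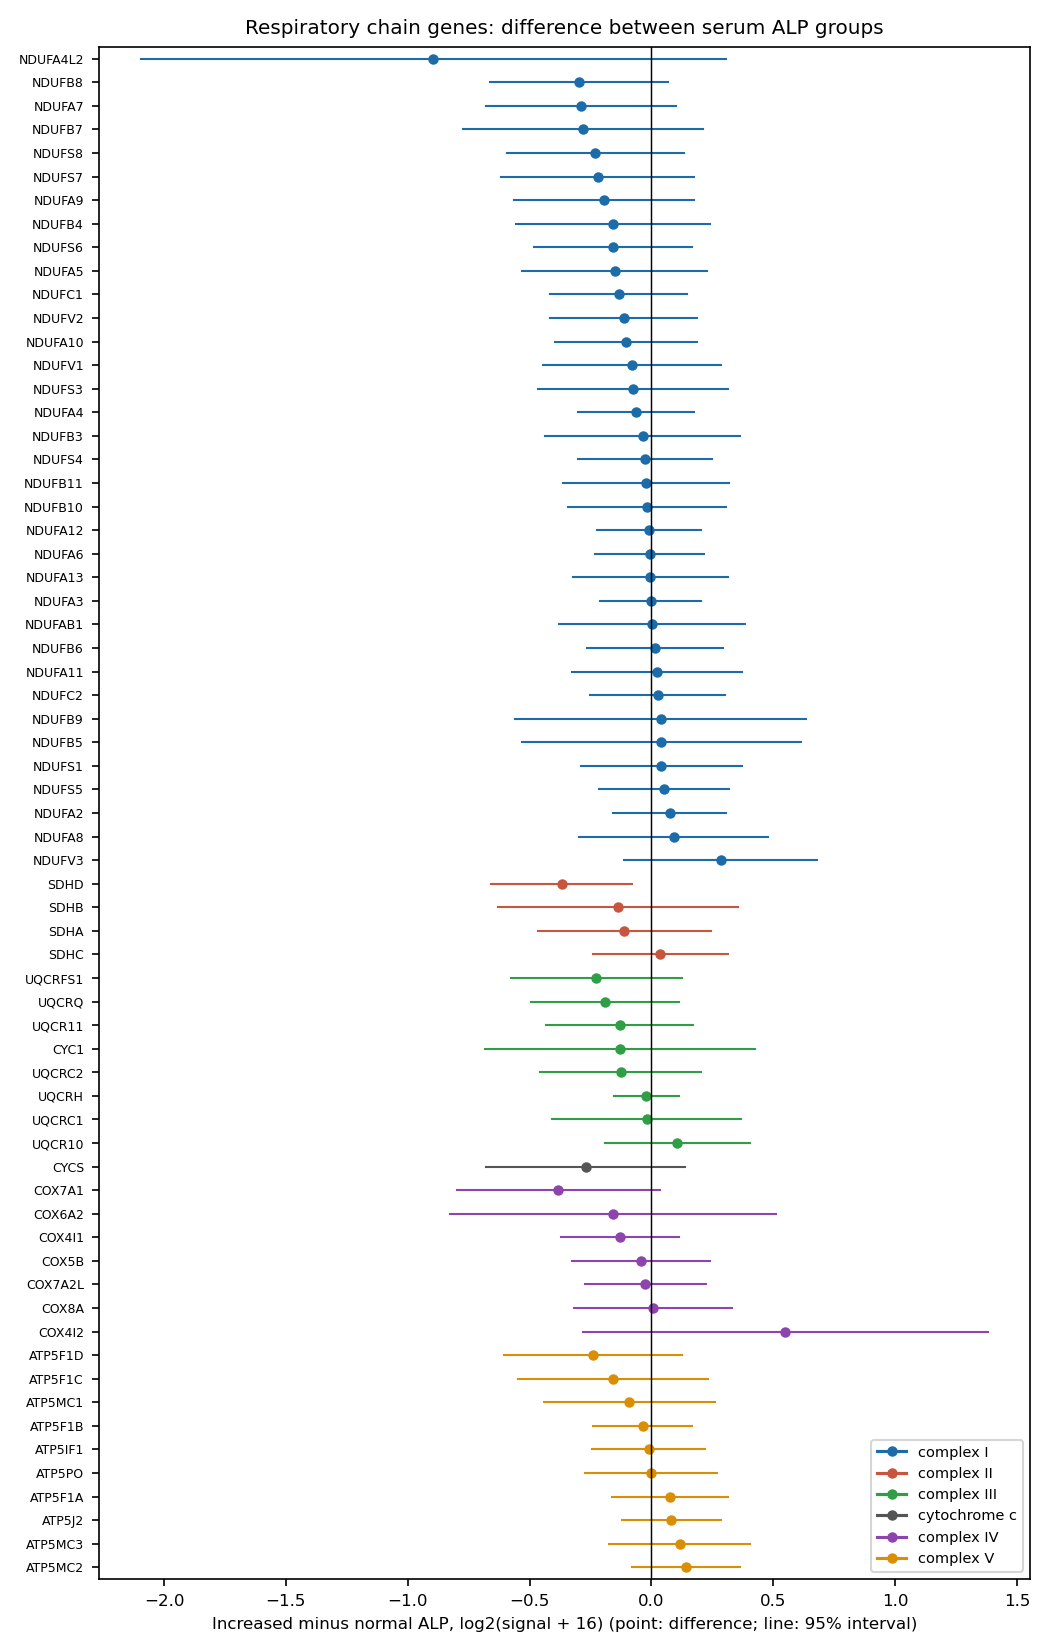
Difference between increased and normal ALP for each of the 65 genes by complex, in log2 units, with 95% confidence intervals from limma and a line at 0. Most points lie within 0.3 of 0 and to its left (46 of 65), and the interval of SDHD, from -0.66 to -0.08, is the one that does not reach 0.

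In complex I, the entry point for NADH, the genes named are those of smallest p, largest spread or smallest spread. NDUFB8, an accessory subunit of the membrane arm, ran from 11.58 through a median of 12 to 12.56 with normal ALP. With increased ALP it ran from 10.99 through 11.78 to 12.27. The groups overlapped widely, with 2 increased tumours below the lowest normal one, and the difference was -0.30 ± 0.17 (SE, limma, adjusted p = 0.844). It was -0.13 with the GAPDH, -0.19 with the actin and -0.54 with the difference of a second group of actin probe sets, the second actin covariate. NDUFA7, an accessory subunit, ran from 10.48 through 10.98 to 11.62 and from 9.80 through 10.83 to 11.27, with a difference of -0.29 ± 0.19 (SE). Its lowest tumour was increased ALP replicate 3, without which the difference was -0.17, and it was -0.16 with array weights.

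NDUFA4L2 varied most of the 65 genes, over a 19.6-fold range of signal. In the normal group it ran from 7.86 through 9.42 to 10.84, and in the increased group from 6.55 through 7.71 to 10.49. The increased tumours lay at both extremes: 5 of 9 lay below the lowest normal tumour, while replicates 7 and 1 stood at 10.49 and 10.13 among the highest of all. The difference was -0.90 ± 0.57 (SE, 95% interval -2.10 to 0.30, limma adjusted p = 0.852), larger in size than any other member's and also the least precise. With estimated array weights it was -0.55, and with the second actin covariate -1.42.

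NDUFB9, an accessory subunit of the membrane arm, had the largest spread among the common subunits, with an SD of 0.623 over all tumours. It ran from 10.88 through 11.70 to 12.98 and from 10.91 through 11.79 to 13.17, and the groups overlapped over nearly their whole ranges. The difference of 0.04 ± 0.28 (SE) changed sign when any of 5 single arrays was left out. NDUFA3, with an SD of 0.178, varied least in complex I, and its difference was -0.0029 ± 0.10 (SE), with a sign that depended on the setting. The largest difference above 0 in complex I, picked after its value was seen, was that of NDUFV3, a small flavoprotein-arm subunit, at 0.28 ± 0.19 (SE, limma adjusted p = 0.854).

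Complex II, succinate dehydrogenase, also belongs to the tricarboxylic acid (TCA) cycle, and all 4 of its subunits were measured. SDHD, a membrane anchor, ran from 9.87 through 10.33 to 10.56 with normal ALP and from 9.43 through 10.00 to 10.41 with increased ALP. In 8 of 9 tumours with increased ALP it lay below the normal mean, and in 3 below the lowest normal tumour, while 3 normal tumours lay above the highest increased one. The difference was -0.37 ± 0.14 (SE, 95% interval -0.66 to -0.08) and the ratio 0.775 (0.634 to 0.946). Its adjusted p in limma was 0.713. The lowest tumours were increased ALP replicates 6 and 3, and without both the difference was -0.23. Those arrays had the highest spike-in signal, the highest actin 3' minus middle differences (2.12 and 2.17) and the highest neutrophil genes, with mean deviations of 1.55 and 2.33 against at most 0.92 in the other tumours. The difference was -0.13 with the actin and -0.19 with the GAPDH covariate, and the part of neutrophils was not tested.

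The other anchor and the catalytic subunits stood closer together. SDHA, the flavoprotein, ran from 10.48 through 10.92 to 11.53 and from 10.50 through 10.79 to 11.58, a difference of -0.11 ± 0.17 (SE). SDHB, the iron-sulfur subunit, ran from 10.32 through 11.20 to 11.66 and from 10.11 through 10.74 to 11.96, a difference of -0.14 ± 0.23 (SE). SDHC, the other anchor, ran from 11.04 through 11.45 to 11.82 and from 11.09 through 11.47 to 12.10, a difference of 0.04 ± 0.13 (SE). All 3 overlapped between groups over most of their ranges. The differences of SDHA and SDHB were 0.0054 and 0.12 with the actin covariate, that of SDHB 0.02 without increased ALP replicates 3 and 6, and that of SDHC -0.04 without increased ALP replicate 5.

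Complex III passes electrons from ubiquinone to cytochrome c. UQCRFS1, the Rieske iron-sulfur protein, ran from 11.68 through 12.36 to 12.70 and from 11.35 through 12.09 to 12.62, a difference of -0.23 ± 0.17 (SE). It was 0.11 with the actin covariate, -0.06 with the GAPDH covariate and -0.05 without increased ALP replicates 3 and 6. UQCRQ, a small supernumerary subunit, ran from 12.66 through 13.09 to 13.66 and from 12.35 through 13.03 to 13.26, a difference of -0.19 ± 0.15 (SE). It was -0.12 without increased ALP replicate 3 and -0.06 with the GAPDH covariate. UQCR11, another small subunit, ran from 11.20 through 11.75 to 12.10 and from 10.96 through 11.56 to 11.98, a difference of -0.13 ± 0.14 (SE). These 3 had the smallest p values of the complex, and limma's adjusted p was 0.861 or more for each. UQCR11 depended on the arrays with high spike-in signal, since without both its difference was -0.03.

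UQCRH, the hinge protein that helps cytochrome c dock, was the most even of all 65 genes, with an SD of 0.123 and a 1.42-fold range over 18 tumours. The difference of UQCRH was -0.02 ± 0.06 (SE). Its other probe sets gave -0.13 ± 0.14, -0.12 ± 0.14 and -0.08 ± 0.08 (SE), so the evenness belongs to the probe set read. CYC1, which carries the haem of cytochrome c1, had an SD of 0.577 and was lowest in normal ALP replicate 3 at 9.31 and highest in normal ALP replicate 5 at 11.69. UQCR10 was the exception to the direction of the complex, at 0.11 ± 0.14 (SE).

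CYCS encodes cytochrome c, the mobile carrier that also triggers caspase activation when it leaves mitochondria. It ran from 11.17 through 12.23 to 12.89 with normal ALP and from 11.55 through 12.01 to 12.40 with increased ALP. The 3 highest tumours were all of the normal group, but so was the lowest, replicate 3, so the increased group lay inside the range of the normal one. The difference was -0.27 ± 0.19 (SE, limma adjusted p = 0.857), and without normal ALP replicate 3 it was -0.41. Leaving out normal ALP replicate 2 gave -0.19, leaving out both increased ALP replicates 3 and 6 gave -0.18, and the GAPDH covariate gave -0.11.

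Complex IV reduces oxygen, and several of its nuclear subunits exist as tissue forms. COX4I1, the common form of subunit 4, ran from 12.70 through 12.92 to 13.41 and from 12.61 through 12.92 to 13.19, with a difference of -0.13 ± 0.11 (SE). The medians of the groups were nearly equal, and 4 normal tumours lay above the highest increased one. COX4I2, the alternative form, ran from 7.62 through 9.19 to 10.40 and from 8.15 through 9.79 to 10.65, an 8.20-fold range over all tumours. The difference was 0.55 ± 0.40 (SE, 95% interval -0.28 to 1.38, limma adjusted p = 0.857). It was 0.28 with the GAPDH and 0.83 with the actin covariate. The second tested probe set of COX4I2 had a difference of 0.05 ± 0.07 (SE).

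Endothelial genes moved with COX4I2 in some tumours. COX4I2 was lowest in normal ALP replicates 7 and 2, at 7.62 and 7.77, where the mean deviation of the 5 endothelial genes, all tested, was also lowest, at -1.51 and -1.21. It was 10.47 in increased ALP replicate 1 and 10.40 in normal ALP replicate 3, where the endothelial mean was 1.24 and 1.16. In increased ALP replicate 5, the highest for COX4I2 at 10.65, the endothelial mean was -0.10. The endothelial mean ran from -1.51 to 1.16 in the normal and from -0.92 to 1.24 in the increased group, with PECAM1 between 8.75 and 12.75 over all tumours. All 5 endothelial genes had a difference above 0 between the ALP groups, with a median of 0.53, and in limma 0 passed the test, adjusted or not. The part of endothelial cells in the COX4I2 values was not tested.

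COX7A1, the muscle and heart form of subunit 7a, ran from 10.21 through 10.68 to 11.45 with normal ALP and from 9.35 through 10.49 to 10.79 with increased ALP. The increased group lay lower at both ends, with 8 of 9 tumours below the normal mean and 2 below the lowest normal tumour. The difference was -0.38 ± 0.20 (SE, 95% interval -0.80 to 0.03, limma adjusted p = 0.833). Without increased ALP replicate 8, the lowest tumour, it was -0.25, with array weights -0.22, and with the actin covariate -0.54.

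COX6A2, the muscle form of subunit 6a, ran from 6.498 through 7.05 to 9.58 and from 6.48 through 7.04 to 8.08, so that the medians were nearly equal. Its 2 highest tumours, normal ALP replicate 1 at 9.58 and increased ALP replicate 4 at 8.08, were the tumours with the highest skeletal muscle genes. The mean deviation of the muscle genes ran from -1.04 to 5.06 in the normal group and from -0.90 to 3.32 in the increased group. MB, which encodes the muscle oxygen store myoglobin, stood at 11.30 and 9.39 in those tumours, against a normal median of 5.92 and an increased median of 6.15. The difference of COX6A2 was -0.16 ± 0.32 (SE), and without normal ALP replicate 1 it was 0.13. COX8A and COX7A2L had differences of 0.0055 ± 0.15 and -0.03 ± 0.12 (SE) whose sign depended on the setting.

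**Figure D5:**
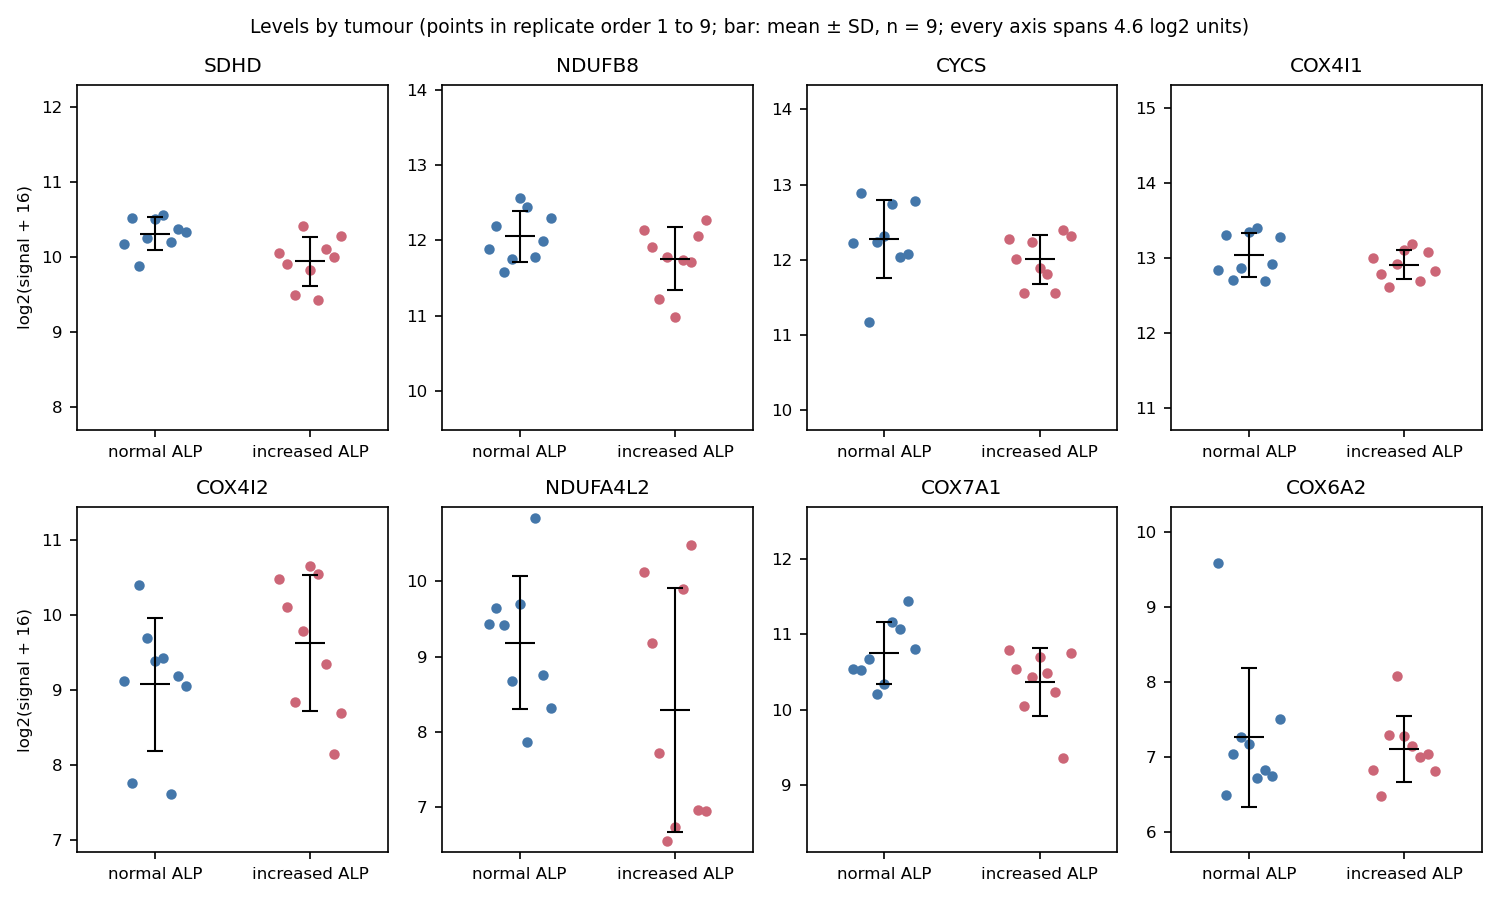
Level of selected respiratory chain genes in each of 18 tumours, as log2(signal + 16), by ALP group, with bars for the mean ± SD (n = 9 each) and axes that span the same number of log2 units. NDUFA4L2 and COX4I2 spread over several log2 units while the common subunit COX4I1 stays between 12.61 and 13.41, and the groups overlap for every gene shown.

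Complex V is the ATP synthase. ATP5F1D, the delta subunit of the rotor stalk, ran from 10.45 through 11.22 to 11.71 and from 10.46 through 10.95 to 11.32, a difference of -0.24 ± 0.17 (SE). It was -0.11 with the GAPDH covariate and -0.13 without increased ALP replicates 3 and 6. ATP5F1C, the gamma subunit of the stalk, ran from 11.66 through 12.73 to 12.97 and from 11.70 through 12.30 to 12.88, a difference of -0.16 ± 0.19 (SE) that was 0.07 with the actin covariate. ATP5MC2, one of the genes for the c ring, ran from 12.31 through 12.76 to 13.01 and from 12.63 through 12.76 to 13.37, a difference of 0.14 ± 0.11 (SE). Limma's adjusted p was 0.857 or more for each, and the groups overlapped. Without increased ALP replicate 9 the difference of ATP5MC2 was 0.08. ATP5IF1, the inhibitor that blocks ATP hydrolysis by the enzyme, stood at -0.01 ± 0.11 (SE), and the catalytic beta subunit ATP5F1B at -0.04 ± 0.10 (SE). The other tested probe set of ATP5F1B gave -0.30 ± 0.15 (SE).

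Other probe sets of the same genes gave a partial check on the choice of 1 per gene. Of 62 other probe sets, 56 were bright enough to test, for 39 genes, and 42 of the 56 had a difference below 0, with a median of -0.10. In 39 of the 56 the sign was that of the chosen probe set, and for 12 genes the probe sets had both signs. At an unadjusted p under 0.05 there were 4 of 56, a share near the 6.14% of all probe sets, and all 4 were lower: NDUFA10 (-0.44 ± 0.20 SE), NDUFC1 (-0.42 ± 0.20), NDUFS1 (-0.62 ± 0.29) and UQCR11 (-0.35 ± 0.14), and 0 passed after adjustment in limma. For NDUFS1, the largest subunit of the electron input arm, the chosen probe set gave 0.04 ± 0.16 (SE) and the 3 others -0.38, -0.41 and -0.62, so that its value depended on the probe set read.

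Genes that feed, build or regulate the respiratory chain were described by the same fit. Of 13 TCA cycle genes, 11 were tested, with 7 below and 4 above 0 and a median of -0.20. CS, citrate synthase, which starts the cycle, ran from 9.79 through 10.35 to 10.87 with normal ALP and from 9.47 through 9.91 to 10.10 with increased ALP, and all 9 increased tumours lay below the normal mean. Its difference was -0.44 ± 0.15 (SE, limma adjusted p = 0.642), with a range of -0.50 to -0.37 when single arrays were left out. IDH3G, a subunit of isocitrate dehydrogenase, stood at -0.35 ± 0.14 (SE, adjusted p = 0.722 in limma), but at -0.06 with the actin covariate. It was -0.19 without increased ALP replicates 3 and 6. DLST, of the 2-oxoglutarate dehydrogenase complex, stood at -0.48 ± 0.24 (SE) and at 0.14 with the actin covariate.

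Of 46 assembly factors, 35 were tested, with 26 below and 9 above 0, a median of -0.06 and 0 at an unadjusted p under 0.05 in limma. The count below 0 was 16 with the GAPDH covariate. TTC19, which acts on complex III, stood at -0.35 ± 0.17 (SE) and at 0.02 with the actin covariate. It was -0.18 without increased ALP replicates 3 and 6. COX15, an enzyme of haem A synthesis for complex IV, stood at -0.18 ± 0.11 (SE), and at -0.11 without normal ALP replicate 6. SDHAF4, an assembly factor of complex II, stood at -0.22 ± 0.13 (SE), and at -0.06 with the GAPDH covariate.

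Of 14 regulators of mitochondrial biogenesis, 11 were tested, with 7 below and 4 above 0 and a median of -0.05. PPARGC1B, a coactivator of genes for oxidative metabolism, stood at -0.37 ± 0.14 (SE, limma adjusted p = 0.686), with 9 of 9 increased tumours below the normal mean. It was -0.22 with the mean of its probe sets, and the gene did not pass a stricter filter on dim probe sets. TFAM, which packs and transcribes mitochondrial DNA, stood at -0.33 ± 0.25 (SE) and at -0.14 without normal ALP replicate 2, and TFB1M, a methyltransferase of mitochondrial ribosomal RNA, at 0.29 ± 0.31 (SE). The value of TFB1M was 0.12 without normal ALP replicate 3, 0.49 without normal ALP replicate 2 and 0.04 with the actin covariate. PPARGC1A and NRF1 were too dim to test. No gene of these 3 lists passed the adjusted threshold in limma, and 2 of the TCA cycle and 1 of the regulators, all lower, had an unadjusted p under 0.05. Over the lists as a whole that is a share near the 4.86% of all genes. Across tumours, the members were related to the TCA cycle genes with a median r of 0.284, to the assembly factors with 0.312 and to the regulators with 0.201, each over 18 tumours and with no p.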

How the data were processed

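The deposited values are log2 signals of 43035 probe sets, with MAS5 named in the submitters' processing notes. Their normalization and detection calls are not given in the sources used here. Deposited log2 values (2.03 to 15.09) were turned to linear signals, 16 was added and log2 was taken again. After 111 control probe sets were set aside, 25754 probe sets with a mean at or above the 40th percentile (6.15) were kept. Of 42924 probe sets other than controls, 29254 had 1 symbol in the platform annotation, 439 several and 13231 none listed. Of the 65 member genes, 63 were found in the RefSeq table of UU_Cfam_GSD_1.0, used for names only.

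Groups (9 against 9, by the labels' serum ALP) were compared with limma 3.58.1 in R 4.3.3 (lmFit, eBayes with a trend), two-sided, with Benjamini-Hochberg adjustment over all probe sets tested and a threshold of 0.05. The fit was tested on simulated data. A list mean is the mean over its tested genes of each tumour's deviation. Plots and correlations used Python 3.11.15, NumPy 2.4.6, pandas 2.3.3 and matplotlib 3.10.9. The members and gene lists were chosen with earlier results of these data known. Members were named by smallest p (3 per complex I, III, IV and V), as the complex II genes and CYCS, by the 4 largest and 2 smallest spreads, or as tissue isoforms, and 3 genes of smallest p per related list with PPARGC1A, NRF1 and TFAM. NDUFV3, CYC1, UQCR10, ATP5IF1, ATP5F1B and the probe sets of NDUFA10, NDUFC1 and NDUFS1 were picked after their values were seen. Chosen probe sets had names ending in _s_at for 34 genes and _x_at for 2, which can bind related transcripts or gene copies. The alternatives were other offsets, filters, scalings, eBayes settings, array weights, covariates, a replicate block, the mean of a gene's probe sets and left-out arrays.

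Tissue numbers 1 to 9 occur in both groups. Same-numbered tumours had correlations of deviations from -0.16 to 0.27, with 4 of 9 pairs over 0.1, so the numbers were not taken as pairs.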

Additional observations from a re-analysis of the deposited data

Results flagged for a closer look

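Of 58 groups of 9 values tested for a single distant tumour (gap to the nearest other over the range above 0.493), 4 had one, and chance gives about 1 in 20. ATP5MC2, a c ring gene of complex V, was highest in increased ALP replicate 9 at 13.37, and the next tumour of the group stood at 12.88. CYCS, cytochrome c, was lowest in normal ALP replicate 3 at 11.17, and the next stood at 12.03. That tumour also had the fewest members above their own means (4 of 65). COX6A2, the muscle form of subunit 6a, was highest in normal ALP replicate 1 at 9.58, the tumour of highest skeletal muscle genes, and the next stood at 7.50. COX8A of complex IV was highest in increased ALP replicate 8 at 12.77, and the next stood at 12.24.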

How the results depend on the processing

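In 35 settings besides the one reported, 0 members and 0 probe sets passed the adjusted threshold in limma, and the smallest adjusted p of a named member was 0.331. The count of members below 0 ran from 31 to 51. Of 32 named genes, 19 kept the sign of their difference in all settings run. The filters, the eBayes settings and the replicate block cannot move a fitted difference, so these settings do not test its sign. For each of the changes below the cause was not tested. With the actin covariate the differences were 0.0054 for SDHA, 0.12 for SDHB, 0.11 for UQCRFS1, 0.12 for COX7A2L, -0.0681 for NDUFB9, 0.0713 for ATP5F1C, 0.14 for DLST and 0.0237 for TTC19. With the GAPDH covariate they were 0.12 for SDHB, 0.0693 for COX7A2L and 0.0310 for ATP5F1C, and 16 in place of 26 assembly factors lay below 0. With the second actin covariate, chosen after seeing the data, 49 members lay below 0 with a median of -0.14, and the differences were 0.00011 for UQCRH, 0.0070 for COX7A2L and -0.0401 for COX8A. With the second GAPDH covariate, also added, that of COX7A2L was 0.0024. Scaling to the 75th percentile gave 0.0419 for NDUFA3, 0.0231 for UQCRH and 0.0187 for COX7A2L, and quantile normalization 0.0270 for NDUFA3. Array weights gave 0.0179 for NDUFA3 and 0.0214 for COX7A2L, and the mean of probe sets 0.0098 for NDUFA3 and -0.0198 for COX8A. Without increased ALP replicates 3 and 6 the differences were 0.0201 for SDHB and 0.0559 for COX7A2L. Without normal ALP replicate 1 and increased ALP replicate 4 they were 0.0125 for COX6A2, -0.0402 for NDUFB9 and -0.0641 for COX8A. With single arrays left out they ran from -0.0407 to 0.0861 for SDHC, from -0.28 to 0.13 for COX6A2, from -0.13 to 0.19 for NDUFB9, from -0.0408 to 0.0136 for UQCRH, from -0.0368 to 0.0506 for NDUFA3, from -0.0795 to 0.0851 for COX8A and from -0.0702 to 0.0334 for COX7A2L. With the tissue number as a replicate block, 0 members passed in limma, and the block changed no call. Each group holds the same tissue numbers, so the block could not change the differences, and the 46 members below 0 are no check.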
